A study of Mus musculus with 12 samples.

Results

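Aortas from mice on a high-fat diet, in the group titled HAPN, were compared by mRNA sequencing with aortas from mice on a normal diet, in the group titled WT. The comparison used 6 of the 12 files of the series, HAPN1 to HAPN3 against WT1 to WT3. Of the 3534 genes listed in each file, it took the 1489 with at least 1 FPKM (fragments per kilobase of transcript scaled to library size, a level that can be compared between genes) in at least 3 of these 6 libraries. Just inside that limit lay Mest, for which the third highest value was 1.002 FPKM, and just outside it Slc7a8, for which it was 0.9945 FPKM. Both groups are labelled with the genotype WT. The labels give the high-fat diet as D12492i with 60% of kcal from fat, fed for 12 weeks, and the normal diet as D12450Bi. Beside them stand the HFD libraries, whose genotype and diet labels equal those of HAPN, and the HSAPN libraries, labelled APPL1 knockdown on the high-fat diet. What the title HAPN stands for, how and in which cells APPL1 was lowered, and the strain, age and sex of the mice do not follow from the labels. The difference between HAPN and WT therefore holds the diet together with whatever else sets HAPN apart from HFD, and these cannot be told apart in this comparison. HFD replicates 1 and 2 hold the same values in every gene and were counted as 1 library. The labels leave unsaid whether a replicate is an animal, so p-values speak only of the spread between these libraries, which may be technical.

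Depth was alike in the 6 libraries, and their cell makeup was not. Whole reads could be recovered from the deposited values, and the totals ran from 15610000 to 17840000 reads per library. The listed genes held 12.0 to 17.6% of a library's reads, so the table is a part of the transcriptome. Smooth muscle genes of the aortic wall were present in all 6 libraries, with Acta2 at 165 FPKM or more. Of 20 endothelial markers the deposited values hold only Fabp4, which fat cells also express, so the endothelium could not be checked. Libraries of 1 group differed in genes of neighbouring tissues. Tnnt2, a heart muscle gene, was at 11.8, 63.6 and 44.0 FPKM in WT against 25.2, 26.7 and 1.58 FPKM in HAPN. Bpifa1, a secreted protein of the airway lining, reached 238, 10730 and 2771 FPKM in WT against 840, 3848 and 2.81 FPKM in HAPN. HAPN replicate 3 was thus nearly free of heart and airway transcripts. WT replicate 3 stood apart in red cell genes, with a mean log2(FPKM + 1) of 6.24 over 8 genes against 4.27 and 4.25 in the other WT libraries. The part of either in the results below was not tested.

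Heat shock proteins are chaperones that bind unfolded proteins and help them to refold. Their genes are switched on by heat shock factors when unfolded proteins build up, through heat shock elements in the promoter, and cochaperones of the DNAJ family hand clients over to the inducible chaperones. The circadian clock runs in the cells of the vessel wall too, where clock-controlled transcription factors such as DBP and the repressor NFIL3 bind the same D-box elements with opposite effect.

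The high-fat HAPN aortas held more transcript of heat shock chaperones and less of a clock output gene than the normal-diet aortas. Of 1489 genes, 12 passed limma's test (0.806%) with p-values adjusted by Benjamini-Hochberg and a threshold of 0.05. Of these 9 rose (0.604%), namely Hspa1b, Dnaja1, Ahsa2, the Dnaja1-like pseudogenes Gm15542 and Gm7816, the pseudogene Gm14202, Fam71f2, Tnfsf9 and the antibody segment Ighv9-3. The 3 that fell (0.201%) were Dbp, Ccna1 and 1700056E22Rik. Adjusted p-values of the 12 genes lay close to the threshold, with a smallest value of 0.0442, and 348 genes had an unadjusted p under 0.05. In 8 of the 9 genes that rose, all 3 HAPN libraries also lay above the 8 other libraries, the high-fat ones included. Of the 3 that fell, the gene model 1700056E22Rik lay below all 8 others. Among all tested genes 33 lay above (2.22%) and 35 below (2.35%), out of 103 and 319 without overlap against WT. The called genes were chosen for their HAPN values against WT, so these positions are a description and no further support. The filter let 13 genes in through HAPN libraries alone, Gm14202 and Prg2 among them, and 28 through WT libraries alone, Ccna1, 1700056E22Rik, Egr3 and Optc among them, and such genes had to differ.

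These calls depended on single libraries. Leaving out 1 library at a time, limma called 0 genes in 9 of 11 cases (with 170 to 401 genes at an unadjusted p under 0.05), 185 without WT replicate 3 and 6 without HAPN replicate 3. Those 6 were Hspa1b, Hspa1a, Dnaja1, Dnajb1, Ahsa2 and Gm7816. Limma-voom on recovered reads called 0 of 1454 genes (268 had an unadjusted p under 0.05), whereas weighting the libraries by their quality (4.57 for HAPN replicate 2, 0.388 for WT replicate 3) gave 512 calls. The 12 genes were all among the 185 and the 512, and all 12 kept their call with libraries scaled by the median ratio of their genes, which gave 17 calls (14 higher, 3 lower). Values were lower in HAPN in 942 of the 1489 genes (63.26%), with a median log2 difference of -0.18 on the log2(FPKM + 1) scale. Median-ratio scaling shifted that median by 0.14 to -0.03, and 52.38% of genes were then lower. Groups did not overlap in 103 genes that were higher (6.92%) and 319 that were lower (21.4%) in HAPN as deposited, and in 184 (12.4%) and 138 (9.27%) after scaling, so small negative differences depend on the scaling.

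**Figure D1:**
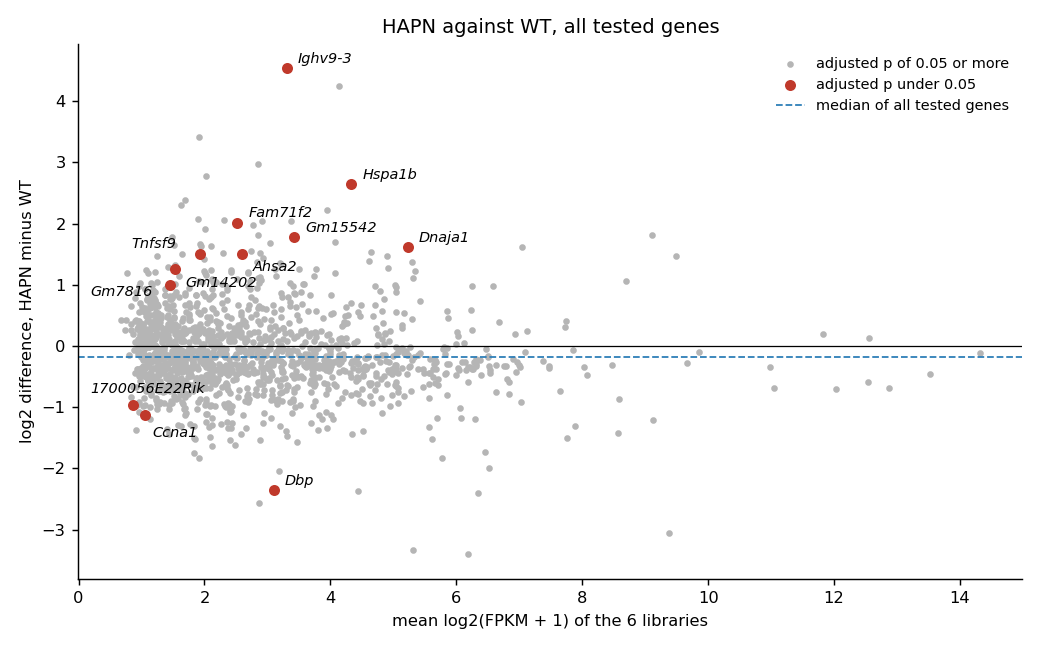
Log2 difference between HAPN and WT on the y axis against the mean log2(FPKM + 1) of the 6 libraries on the x axis, 1 point per tested gene. The 12 called genes are named in red, 9 above and 3 below the zero line, and the dashed line marks the median of all genes at -0.18.

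Chaperone genes were higher in HAPN together. All 8 tested genes of a list of 24 heat shock and chaperone genes stood higher, with a median log2 difference of 1.52 (1.69 after scaling) against -0.18 for all tested genes. The deposited values hold only these 8 of the 24, and Hspa8, Hsp90aa1, Hsp90ab1 and Hspd1 are among those absent. Limma called 3 of the 8, Hspa1b, Dnaja1 and Ahsa2 (0.604% of all tested genes were called higher). In 6 the groups did not overlap, and in 7 after scaling. Of all tested genes, 6.92% were higher without overlap, and 12.4% after scaling. Hspa1b (GRCm38, chr17:34956436-34959238, minus strand) encodes a stress-inducible chaperone and had the largest difference of the list. It was measured at 5.22, 8.06 and 8.29 FPKM in WT against 91.0, 64.2 and 20.3 FPKM in HAPN, which were 255 to 403 and 889 to 4119 reads. The lowest HAPN library thus lay above the highest WT library. Means were 58.5 ± 35.7 and 7.19 ± 1.71 FPKM (SD, n = 3 each), an 8.14-fold rise (log2 2.64, SE 0.457, limma adjusted p = 0.0442). Without HAPN replicate 1 the log2 difference was 2.21 and without HAPN replicate 3 it was 3.27, the extremes over the libraries left out, and the adjusted p ran from 0.00102 to 0.248 over 19 alternatives, 4 of which called it.

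Hspa1a (chr17:34969190-34972156, minus strand), the neighbouring gene for nearly the same protein, did not pass the threshold. It stood at 2.52, 3.22 and 2.44 FPKM in WT and 25.6, 18.7 and 5.82 FPKM in HAPN (log2 difference 2.04, SE 0.422, limma adjusted p = 0.0741), and passed after median-ratio scaling, with array weights and without WT replicate 3 or HAPN replicate 3. In both genes HAPN replicate 1 was highest and HAPN replicate 3 lowest, with no overlap of the groups. Their transcripts are 99.2% identical over 2201 aligned bases, so reads of the pair may be split between them by the counting. The 250 bases before the RefSeq start of each (GRCm38.p6, minus strand) differ in 3 bases and hold the heat shock element GAANNTTC, searched with TTCNNGAA on both strands, 104 bases before the start, and they are shown with the promoter of Hspb1, whose 2 elements begin 117 and 97 bases before its start, because the 3 genes share the element and differ in their values. Capitals mark the element.
Hspa1b, chr17:34959239-34959488, minus strand: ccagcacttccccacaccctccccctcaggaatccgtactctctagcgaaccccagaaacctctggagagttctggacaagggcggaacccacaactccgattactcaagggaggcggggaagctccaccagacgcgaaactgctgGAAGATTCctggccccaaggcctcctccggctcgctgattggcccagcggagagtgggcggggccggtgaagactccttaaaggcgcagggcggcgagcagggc
Hspa1a, chr17:34972157-34972406, minus strand: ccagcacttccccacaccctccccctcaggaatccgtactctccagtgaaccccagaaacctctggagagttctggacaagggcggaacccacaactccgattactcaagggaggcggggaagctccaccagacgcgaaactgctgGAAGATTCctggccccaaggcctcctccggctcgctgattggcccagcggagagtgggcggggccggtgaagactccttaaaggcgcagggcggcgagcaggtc
Hspb1, chr5:135887669-135887918, plus strand: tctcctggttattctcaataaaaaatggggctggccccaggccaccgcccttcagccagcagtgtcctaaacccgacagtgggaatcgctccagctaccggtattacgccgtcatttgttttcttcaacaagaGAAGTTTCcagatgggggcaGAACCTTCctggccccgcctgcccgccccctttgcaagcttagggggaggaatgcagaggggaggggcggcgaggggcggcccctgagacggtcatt
Over windows from 250 bases before to 50 after a start, 15.1% of 32851 RefSeq promoters held the element, and at least 1 promoter of 6 of the 8 tested chaperone genes did. Dnajb1 and Ahsa2 were the exceptions. The 15.1% counts promoters and the 6 of 8 counts genes, some with several promoters, so they are not like for like. Dnaja1 held the element in 1 of its 3 promoters. A match of these letters is a description of the sequence and no evidence of binding.

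Hspb1, which encodes a small heat shock protein, was the chaperone gene that hardly differed. It stood at 87.5, 197 and 83.9 FPKM in WT and 160, 146 and 91.3 FPKM in HAPN. The groups overlapped, with the highest value in WT replicate 2 (log2 0.19, SE 0.351, limma adjusted p = 0.719), and the difference turned to -0.025 without WT replicate 3 and to -0.090 with array weights. Hspb1 transcripts match a pseudogene, Hsp25-ps1, at 99.8% over 441 bases.

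Cochaperones of the DNAJ family stood higher with the inducible chaperones. Dnaja1 (chr4:40722150-40737149, plus strand) was at 18.6, 14.9 and 30.2 FPKM in WT and 76.6, 75.0 and 46.5 FPKM in HAPN, a 3.11-fold rise of the means (log2 1.61, SE 0.286, limma adjusted p = 0.0442). Its HAPN values lay above all 8 other libraries, and WT replicate 3 was the highest of the normal-diet group. Dnajb1 was at 12.3, 10.9 and 19.04 FPKM in WT and 69.8, 45.3 and 22.4 FPKM in HAPN (log2 difference 1.53, SE 0.366, limma adjusted p = 0.107), again without overlap but short of the threshold. Hsph1, an exchange factor of the inducible chaperones, ran from 15.6 to 18.4 FPKM in WT and from 29.4 to 75.6 FPKM in HAPN (log2 difference 1.48, adjusted p = 0.107 by limma). Ahsa2 (chr11:23487882-23498030, minus strand), a relative of an activator of the chaperone HSP90, was at 1.82, 2.20 and 4.18 FPKM in WT and 11.3, 10.9 and 6.16 FPKM in HAPN, a 3.46-fold rise of the means (log2 1.497, SE 0.279, limma adjusted p = 0.0480). Chordc1, which binds HSP90, was at 6.11, 5.53 and 11.3 FPKM in WT and 18.9, 18.3 and 11.3 FPKM in HAPN, where WT replicate 3 and HAPN replicate 3 met (log2 1.02, limma adjusted p = 0.109). Within HAPN, replicate 3 was lowest in all 8 chaperone genes. Within WT, replicate 3 was highest in 6 of them, all but Hspa1a and Hspb1.

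**Figure D2:**
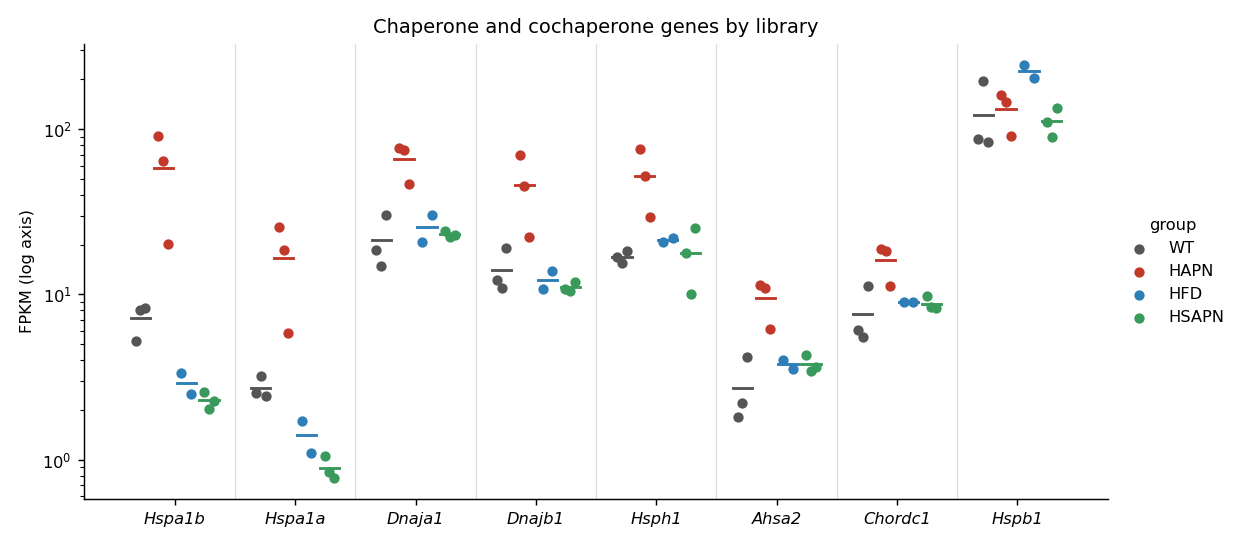
FPKM of the 8 tested chaperone and cochaperone genes in each library on a log axis, with points for libraries and bars for group means. HAPN libraries (red) stand above the 3 WT libraries (grey) in 6 genes, touch them in Chordc1 and overlap with them in Hspb1, and the HFD and HSAPN libraries stand near or below WT in Hspa1b and Hspa1a.

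The 2 called pseudogenes Gm15542 and Gm7816 are copies of the Dnaja1 coding sequence. Gm15542 (GRCm38, chr7:140890887-140892080, plus strand) lies inside Psmd13, and Gm7816 is at chr5:39798214-39799407, plus strand. Over the 1194 bases of the Dnaja1 reading frame they are 99.41% and 99.33% identical to it, with 7 and 8 differing bases and identical stretches of up to 650 and 302 bases. Their reads may therefore not be told apart from those of Dnaja1, and the 3 calls are not independent. The 60 bases from position 740 to 799 of the frame, counted from 1 at the start codon, show how few bases part them. Capitals mark differing bases, C777T and G799A in Gm15542 and G758T in Gm7816.
Dnaja1: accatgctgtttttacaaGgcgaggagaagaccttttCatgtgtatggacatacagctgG
Gm15542: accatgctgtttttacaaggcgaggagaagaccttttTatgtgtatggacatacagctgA
Gm7816: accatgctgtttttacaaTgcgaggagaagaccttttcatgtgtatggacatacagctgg
Gm15542 was at 3.78, 3.61 and 7.88 FPKM in WT and 17.1, 25.0 and 15.7 FPKM in HAPN (log2 difference 1.78, SE 0.294, limma adjusted p = 0.0442). Gm7816 was at 0.909, 0.796 and 1.08 FPKM in WT and 3.05, 3.57 and 2.08 FPKM in HAPN (log2 difference 0.9988, SE 0.173, limma adjusted p = 0.0442). Both followed Dnaja1 in having no overlap between groups, and in both the lowest HAPN value was again in HAPN replicate 3.

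The clock output gene Dbp fell in HAPN. Dbp (chr7:45705088-45710203, plus strand) encodes an activator whose transcript cycles strongly over the day. It was measured at 18.1, 36.7 and 9.30 FPKM in WT and at 3.79, 2.36 and 2.39 FPKM in HAPN, so that the groups were apart although WT spread widely. The WT mean was 7.50-fold the HAPN mean (log2 -2.36, SE 0.423, limma adjusted p = 0.0442), and leaving out 1 library moved the log2 difference between -2.82 and -1.89. Nr1d2, a nuclear receptor that represses clock genes, was at 24.4, 24.7 and 21.1 FPKM in WT and 16.2, 11.7 and 10.3 FPKM in HAPN (log2 difference -0.85, SE 0.211, limma adjusted p = 0.107). Nfil3, the repressor at D-boxes, was at 3.72, 3.81 and 5.83 FPKM in WT and 7.79, 7.81 and 8.62 FPKM in HAPN (log2 difference 0.75, SE 0.215, adjusted p = 0.115 by limma, called after median-ratio scaling). Neither overlapped between the groups. Hlf, of the same family as Dbp, overlapped (log2 -0.52, limma adjusted p = 0.320). Of 22 clock genes on the list, the deposited values hold only these 4, all tested and 1 called (0.806% of all tested genes were called). Their median log2 difference was -0.68 (-0.52 after scaling). Without overlap, 2 were lower and 1 higher, both as deposited and after scaling. Of all tested genes, 21.4% were lower without overlap (9.27% after scaling) and 6.92% higher (12.4% after scaling). No promoter window of the 4 held the E-box CACGTG (7.15% of all promoters) or the D-box TTATGTAA or TTACGTAA (1.06%), which says only that these letters are not in that window. The labels give no collection times.

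Immediate early genes, transcription factors and secreted proteins induced within minutes of a stimulus, were mostly lower in HAPN without a call. Of 11 tested genes 8 were lower, 4 of them with no overlap (21.4% of all tested genes, and 9.27% after scaling, were lower without overlap). The median log2 difference was -0.50, and it was -0.31 after scaling, -0.19 by limma-voom on recovered reads, -0.81 with array weights and -0.26 without WT replicate 2. Egr1 stood at 16.4, 30.9 and 11.4 FPKM in WT and 7.01, 4.12 and 5.33 FPKM in HAPN (log2 difference -1.58, SE 0.327, limma adjusted p = 0.0741). Fos stood at 15.1, 34.0 and 18.4 FPKM in WT and 11.3, 5.37 and 10.5 FPKM in HAPN (log2 difference -1.20, adjusted p = 0.114 by limma). WT replicate 2 was the highest library for both. Cyr61, a matrix-bound signalling protein, was at 48.2 to 102 FPKM in WT and 23.2 to 33.3 FPKM in HAPN (log2 difference -1.32, SE 0.303, limma adjusted p = 0.107). Egr3, which passed the filter through WT alone and so had to differ, was the fourth gene without overlap (log2 -0.67), whereas Nr4a1, Atf3, Myc and Ctgf overlapped, with log2 differences of -0.50, 0.08, 0.19 and -0.01.

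The other called genes came from unlike functions. Ccna1 (chr3:55045469-55055501, minus strand), a cyclin best known from germ cells, was at 2.09, 1.92 and 2.24 FPKM in WT and 0.672, 0.306 and 0.278 FPKM in HAPN, or 63 to 70 and 8 to 20 reads. The HAPN mean was 4.98-fold lower (log2 -1.13, SE 0.166, limma adjusted p = 0.0442). Since it passed the filter through WT libraries alone, it had to differ. Fam71f2 (chr6:29279593-29290680, plus strand) was at 0.851, 1.53 and 3.96 FPKM in WT and 10.3, 11.1 and 10.2 FPKM in HAPN (log2 difference 2.02, SE 0.355, limma adjusted p = 0.0442), with near-equal HAPN libraries. Tnfsf9 (chr17:57105325-57107757, plus strand), a costimulatory ligand for T cells, was at 1.39, 0.546 and 2.10 FPKM in WT and 4.11, 6.16 and 6.17 FPKM in HAPN (log2 difference 1.504, SE 0.280, limma adjusted p = 0.0480). Gm14202, a processed pseudogene (chr2:158406508-158406818, minus strand) without a close copy among the transcripts, rested on few reads, 4 or 5 in WT libraries and 14 to 21 in HAPN libraries, which alone carried it past the filter (log2 1.26, SE 0.186, limma adjusted p = 0.0442). 1700056E22Rik (chr1:184033030-184034301, minus strand), an unnamed gene model, passed the filter through WT alone, with 29 to 43 reads in WT and 3 to 9 reads in HAPN (log2 -0.97, SE 0.173, limma adjusted p = 0.0442).

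Ighv9-3 (chr12:114140692-114141122, minus strand), a variable segment of the antibody heavy chain, showed the largest fold of the called genes. It was at 0, 1.75 and 2.18 FPKM in WT and 22.8, 83.8 and 53.0 FPKM in HAPN, or 0, 11 and 13 reads against 129, 522 and 291. All 3 HAPN libraries were far above WT (log2 4.54, SE 0.816, limma adjusted p = 0.0442; the means differ 40.6-fold). The other high-fat libraries were at 7.88 and 14.9 FPKM in HFD and at 0.484, 12.2 and 7.04 FPKM in HSAPN. All lay below HAPN, and all but the library at 0.484 FPKM lay above the WT range. The contrast of HAPN with them was not called (log2 2.58, SE 0.735, limma adjusted p = 0.257). Its sequence is 94.3% identical to Ighv9-2, so reads of related segments may be counted here. The deposited values hold no gene of the list of B and plasma cell markers, so the number of such cells could not be set beside it.

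**Figure D3:**
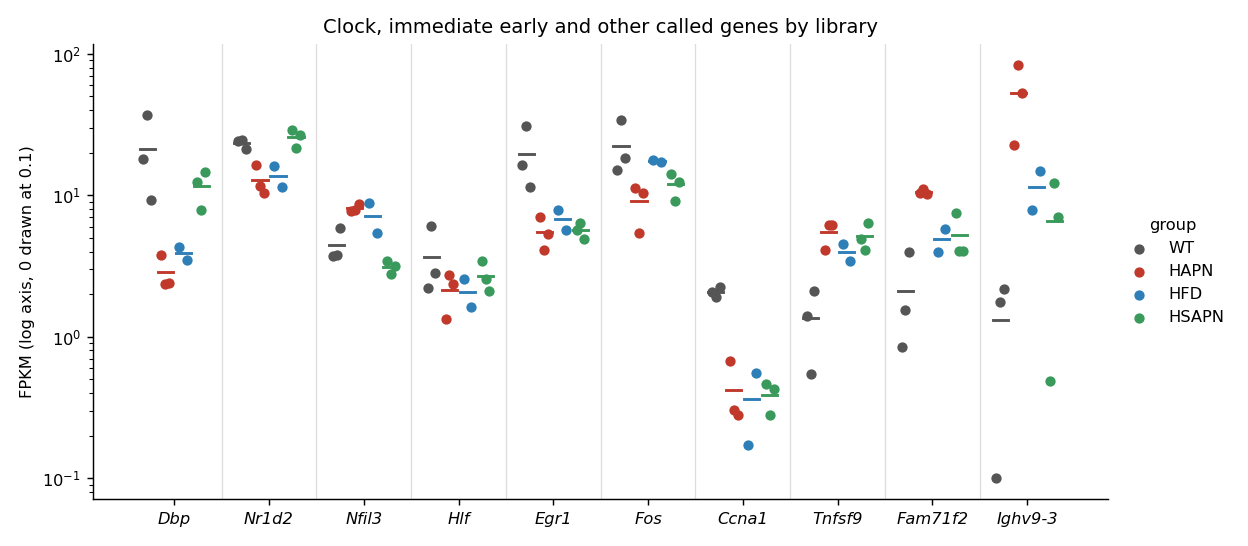
FPKM in each library on a log axis (0 is drawn at 0.1) for 4 clock genes, 2 immediate early genes and 4 other called genes, with points for libraries and bars for group means. Dbp and Ccna1 are low in all 3 HAPN libraries, and in Ccna1 and Tnfsf9 the HFD and HSAPN libraries lie with HAPN and not with WT.

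Genes of smooth muscle contraction stood lower in HAPN in every tested member, and none was called. The 13 tested genes had a median log2 difference of -1.18 (-0.99 after scaling), and 8 did not overlap between groups (5 after scaling), beside 21.4% of all tested genes that were lower without overlap (9.27% after scaling). Acta2, smooth muscle actin, was at 354, 1607 and 421 FPKM in WT and 312, 235 and 165 FPKM in HAPN (log2 difference -1.43, SE 0.612, limma adjusted p = 0.205). Cnn1, an actin-binding protein, was at 150, 438 and 92.7 FPKM in WT and 77.3, 47.8 and 25.0 FPKM in HAPN (log2 difference -1.99, SE 0.749, adjusted p = 0.180 by limma). WT replicate 2 was the highest library for both, and in Acta2 the other WT libraries lay just above HAPN replicate 1. Tpm2, Des and Myh11, which build thin filaments, intermediate filaments and thick filaments, differed by log2 -1.84, -1.73 and -1.18. The list median was -0.57 without WT replicate 2 and -1.61 without WT replicate 1, the extremes over the libraries left out. In such bulk samples, fewer cells of a type and less RNA per cell cannot be told apart. Among the 6 libraries, heart and airway genes were also highest in WT replicate 2, with a mean log2(FPKM + 1) of 6.62 over 3 heart genes and 10.49 over 2 airway genes, against 1.63 and 1.17 in HAPN replicate 3, and their part in the lower contractile values was not tested.

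Matrix genes of fibroblasts were lower in 9 of 13 tested members, and in all 9 the groups did not overlap (5 after scaling). Over all tested genes, 21.4% were lower without overlap, and 9.27% after scaling. The median log2 difference was -0.75 (-0.56 after scaling), and limma called none. Dcn, a small proteoglycan of collagen fibrils, was at 61.9, 62.1 and 64.1 FPKM in WT and 35.7, 31.5 and 35.5 FPKM in HAPN (log2 difference -0.86, SE 0.289, limma adjusted p = 0.146). Its groups were tight and clearly apart in these 6 libraries, while the HFD libraries, at 76.4 and 34.0 FPKM, spanned both. Serpinf1, a secreted serpin, was at 31.4, 30.6 and 14.2 FPKM in WT and 13.1, 7.57 and 9.89 FPKM in HAPN (log2 difference -1.19, SE 0.313, limma adjusted p = 0.109). Like Serpinf1, Clec3b (log2 -0.75) and the microfibril gene Mfap5 (-0.71) did not overlap as deposited but did after scaling. Lum (-1.34), Pi16 (-1.26), Optc (-1.45) and Fbln1 (-0.76) stayed apart under both, where Optc had passed the filter through WT alone. The other 4 members, Dpt, Fn1, Mmp3 and Sfrp2, had log2 differences from 0.02 to 0.48.

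**Figure D4:**
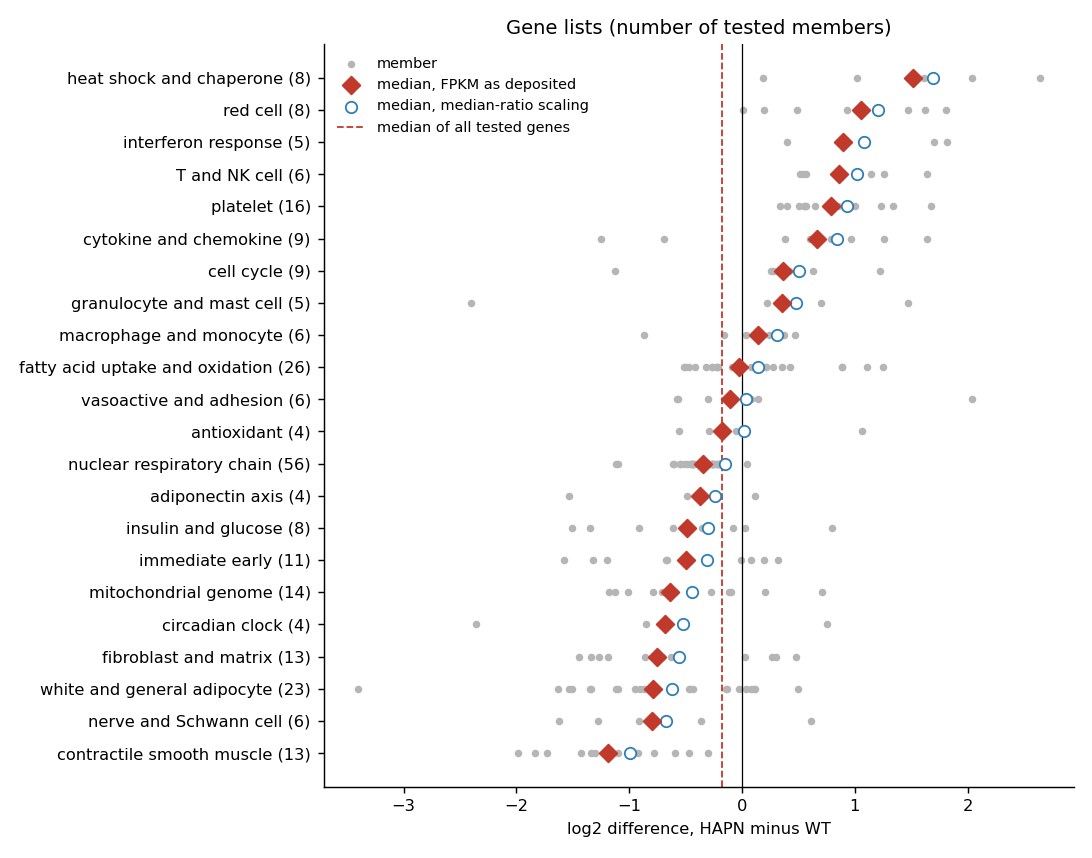
Log2 differences (HAPN minus WT) of the tested members of the 22 gene lists with at least 4 tested genes, with the list median as deposited (red) and after median-ratio scaling (blue). Chaperone genes have the highest median (1.52), contractile genes the lowest (-1.18), and the dashed line is the median of all genes at -0.18.

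Respiratory chain genes were slightly lower nearly throughout, at a size that the scaling of libraries reaches. Of 56 nuclear genes 55 were lower, 28 with no overlap, at a median log2 difference of -0.34. After scaling the median was -0.15, with 53 lower and 4 without overlap, and no gene was called under either. Of all tested genes, 21.4% were lower without overlap as deposited and 9.27% after scaling, so that the 4 of 56 lay below the share of all genes. Uqcrq, a subunit of complex III, was at 61.1, 71.9 and 53.3 FPKM in WT and 42.0, 39.7 and 39.5 FPKM in HAPN (log2 difference -0.60, SE 0.192, limma adjusted p = 0.139). Sdhc, a membrane anchor of succinate dehydrogenase, ran from 32.6 to 42.8 FPKM in WT and from 25.3 to 28.6 FPKM in HAPN (log2 difference -0.42, and -0.23 with overlap after scaling). Of 14 genes on mitochondrial DNA 12 stood lower (median -0.64), with overlap in all 14. mt-Atp6 was at 169, 82.3 and 32.5 FPKM in WT and 47.0, 30.0 and 26.6 FPKM in HAPN, highest in WT replicate 1. Without WT replicate 1 the median of the mitochondrial genes was -0.27, and without WT replicate 3 it was -0.93.

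Fat-handling genes leaned in no common direction as deposited. Of 26 tested genes of fatty acid uptake and oxidation 11 were higher and 15 lower (median log2 -0.02), and after scaling 16 were higher (median 0.14). Without overlap, 2 were higher and 2 lower as deposited, and 6 and 0 after scaling. Of all tested genes, 6.92% were higher and 21.4% lower without overlap as deposited, and 12.4% and 9.27% after scaling. Plin2 and Angptl4, both known as PPAR targets, did not pass the threshold. Plin2, which coats lipid droplets, was at 21.8, 18.4 and 30.9 FPKM in WT and 31.5, 46.0 and 57.0 FPKM in HAPN (log2 difference 0.88, SE 0.262, adjusted p = 0.125 by limma). Angptl4, an inhibitor of lipoprotein lipase, was at 4.14, 3.59 and 16.0 FPKM in WT and 13.6, 16.7 and 19.9 FPKM in HAPN, where WT replicate 3 fell among the HAPN values (log2 1.25, limma adjusted p = 0.152). The medium-chain and long-chain dehydrogenase genes Acadm (-0.02) and Acadl (-0.23) hardly differed.

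Adipocyte genes varied more within each group than between them. Of 23 tested genes 18 were lower in HAPN, with a median log2 difference of -0.79, and in none were the groups apart. Adipoq, which encodes adiponectin, was at 2.44, 9.44 and 53.8 FPKM in WT and 3.39, 15.8 and 0.0923 FPKM in HAPN, the last being 2 reads (log2 -1.54, SE 1.63, limma adjusted p = 0.536). Cfd, the adipocyte protease adipsin, was at 80.2, 240 and 681 FPKM in WT and 42.5, 181 and 0.415 FPKM in HAPN (log2 difference -3.41, SE 2.19, limma adjusted p = 0.332). In both genes WT replicate 3 was highest and HAPN replicate 3 nearly empty. The list median was -0.20 without WT replicate 3 and -1.33 without WT replicate 1. Cdh13, the cadherin that binds adiponectin, was at 1.26, 3.62 and 4.45 FPKM in WT and 1.89, 2.94 and 1.91 FPKM in HAPN, with overlap (log2 -0.26, limma adjusted p = 0.661), and its difference was 0.032 by limma-voom on recovered reads.

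Platelet genes stood higher in HAPN in all 16 tested members. Their median log2 difference was 0.79 (0.93 after scaling), and in 8 the groups did not overlap (14 after scaling), but none was called as deposited. Of all tested genes, 6.92% were higher without overlap as deposited and 12.4% after scaling. Clec1b, a platelet activation receptor, was at 0.952, 1.25 and 3.01 FPKM in WT and 5.77, 5.79 and 3.95 FPKM in HAPN (log2 difference 1.23, SE 0.311, limma adjusted p = 0.107, called after scaling). Gp1ba, of the receptor for von Willebrand factor, was at 0.442, 0.432 and 1.17 FPKM in WT and 2.45, 2.21 and 1.36 FPKM in HAPN (log2 difference 0.85, limma adjusted p = 0.166). In both, WT replicate 3 and HAPN replicate 3 were the closest pair across the groups. Itga2b (0.94) and Gp9 (1.33) did not overlap either, and the platelet tubulin Tubb1 (1.68) did because of WT replicate 3. HFD and HSAPN libraries were no lower as groups, and against them the platelet median of HAPN was -0.33.

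Red cell genes were higher in HAPN in 8 of 8 tested members, and every one overlapped. Their median log2 difference was 1.06. The hemoglobin gene Hba-a1 was at 137, 153 and 1198 FPKM in WT and 602, 1460 and 1247 FPKM in HAPN (log2 difference 1.81, SE 0.758, limma adjusted p = 0.196). WT replicate 3 alone carried hemoglobin transcripts at the HAPN level, and without it the list median was 1.88. The median fell to 0.61 without WT replicate 2, 0.63 without HAPN replicate 2 and 0.69 without WT replicate 1, and it was 2.10 with array weights and 1.76 by limma-voom on recovered reads. Hba-a1 and the beta globin genes Hbb-bs and Hbb-bt have near-identical copies, so single globin values are uncertain. Platelet and red cell transcripts both mark blood in the tissue, and the part of blood in the other differences was not tested.

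T and NK cell genes, cytokine genes and interferon-induced genes were higher in most members, led by HAPN replicate 3. All 6 tested T and NK cell genes were higher (median log2 0.86), as were 5 of 5 interferon response genes (0.89) and 7 of 9 cytokine and chemokine genes (0.66), with no call. Gzmb, a protease of cytotoxic cells, was at 0.199, 0.584 and 4.51 FPKM in WT and 1.16, 3.63 and 30.6 FPKM in HAPN. Igtp, an interferon-induced GTPase, was at 5.51, 7.47 and 13.7 FPKM in WT and 11.5, 19.6 and 108 FPKM in HAPN. In each case replicate 3 was the highest library of its own group, and WT replicate 3 exceeded HAPN replicate 1. Without HAPN replicate 3 the medians were 0.34 for T and NK cell genes, 0.46 for interferon response genes and -0.04 for cytokine genes. The highest medians over the libraries left out were 1.49 and 1.19 for T and NK cell genes and cytokine genes, both without WT replicate 3, and 1.51 for interferon response genes, without HAPN replicate 1. Of the 2 lower cytokine and chemokine genes, Ccl11, a chemokine for eosinophils, did not overlap (log2 -0.70, limma adjusted p = 0.134). The other, Cxcl13, differed more and overlapped (log2 -1.25).

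**Figure D5:**
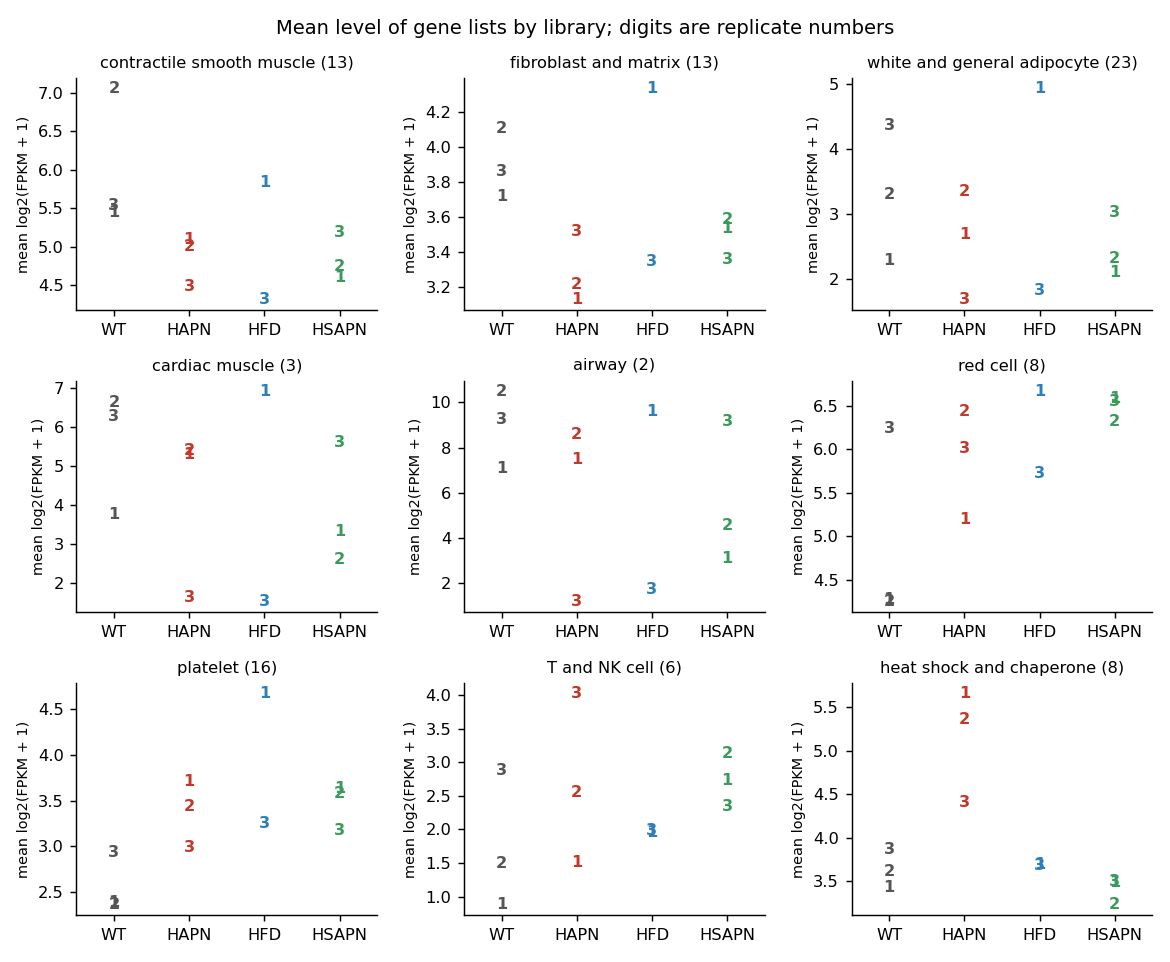
Mean log2(FPKM + 1) of 9 gene lists in each library, where each digit is the replicate number of a library and HFD 1 is the file deposited as replicates 1 and 2. WT replicate 2 is highest in contractile genes, WT replicate 3 lies with the high-fat libraries in red cell genes, HAPN replicate 3 is low in heart and airway genes, and all 3 HAPN libraries lie above the 8 others in chaperone genes.

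Among genes of vessel tone and cell division, 2 stood out by size without passing the threshold. Edn1, the vasoconstrictor endothelin, was at 1.52, 3.63 and 10.3 FPKM in WT and 9.39, 30.7 and 27.0 FPKM in HAPN (log2 difference 2.04, SE 0.574, limma adjusted p = 0.114). WT replicate 3 lay just above HAPN replicate 1, and the other 2 HAPN libraries were far higher. Cdkn1a, an inhibitor of cell cycle kinases, was at 19.1, 18.2 and 47.9 FPKM in WT and 46.8, 67.7 and 72.5 FPKM in HAPN (log2 difference 1.23, SE 0.395, adjusted p = 0.139 by limma). Both were called without WT replicate 3 and with array weights. Of 6 tested vasoactive genes 3 were higher and 3 lower, and of 9 cell cycle genes 8 were higher, with Mki67 at log2 0.63 and Top2a at 0.37, both overlapping. The lower cell cycle gene was Ccna1, described above and the only called member of that list (0.806% of all tested genes were called). The cell cycle median of 0.36 rested on HAPN replicate 3, without which it was -0.07 and Mki67 stood at 0.13. It was 0.16 without WT replicate 1 and 0.15 with array weights, and rose to 0.76 without HAPN replicate 1 and 0.79 by limma-voom on recovered reads.

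Set against the other high-fat libraries, HAPN stood apart in the inducible chaperone genes and in 1 pseudogene. The contrast of HAPN with the mean of HFD and HSAPN holds no WT library but shares the 3 HAPN libraries with the comparison above. Limma called 3 of 1489 genes (0.201%), all higher in HAPN, and 154 had an unadjusted p under 0.05. Hspa1b was at 3.36 and 2.49 FPKM in HFD and 2.57, 2.03 and 2.28 FPKM in HSAPN, all below the WT range (log2 3.81, SE 0.412, limma adjusted p = 0.00718). Hspa1a was at 1.72 and 1.09 FPKM in HFD and 1.05, 0.845 and 0.771 FPKM in HSAPN (log2 2.85, SE 0.380, limma adjusted p = 0.0143). Gm14202 was at 0.202 and 0.193 FPKM in HFD and 0.969 to 1.83 FPKM in HSAPN (log2 1.42, SE 0.168, limma adjusted p = 0.00805). The 8 chaperone genes had a median log2 difference of 1.36 in this contrast, with Dnaja1 at 1.38 and Dnajb1 at 1.76 (limma adjusted p = 0.0679 each). Gm14202 had passed the filter through HAPN libraries, and it was not called by limma-voom on recovered reads. Hspa1a was not called without HFD replicate 1, HAPN replicate 1, HSAPN replicate 2 or HSAPN replicate 3. Without HAPN replicate 2 limma called 0 genes, without WT replicate 3 it called 6, and without HFD replicate 3 it called 5.

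Other genes called against WT did not pass against the high-fat libraries. Tnfsf9 was at 4.50 and 3.42 FPKM in HFD and 4.12 to 6.32 FPKM in HSAPN, overlapping HAPN (log2 0.23, SE 0.252, limma adjusted p = 0.820). Ccna1 was at 0.171 and 0.557 FPKM in HFD and 0.280 to 0.463 FPKM in HSAPN (log2 0.04, SE 0.150, limma adjusted p = 0.951). For both genes all HFD and HSAPN libraries lay on the HAPN side of the WT range. Dbp was at 4.33 and 3.495 FPKM in HFD, close to HAPN, and at 12.5, 7.92 and 14.5 FPKM in HSAPN (log2 -1.03, SE 0.381, limma adjusted p = 0.407). Fam71f2 was at 3.99 and 5.80 FPKM in HFD and 4.06 to 7.54 FPKM in HSAPN, between WT and HAPN (log2 0.96, SE 0.320, adjusted p = 0.354 by limma). Contractile genes had a median log2 difference of -0.11 in this contrast and matrix genes of -0.44.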

How the data were processed

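The deposited files give 1 FPKM value per gene symbol and library, and this unit was read from the values, since the files themselves do not name it. Per the submitters' processing notes, featureCounts 1.5.0-p3, DESeq 1.8.3 and GRCm38 were used, with no role given, and per the labels' protocols RNA was taken with TRIzol and libraries made with a directional NEB kit. The aligner, the strand setting and the rule that chose the 3534 listed genes were not given in the sources used here. FPKM times GENCODE M21 exon length gave whole reads (within 0.1, up to 20 reads) for 96.1 to 97.2% of low values, and 1 read on 1 kb was worth 0.0561 to 0.0641 FPKM in the 6 libraries. That check does not tell FPKM from TPM, which would change the totals.

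Log2(FPKM + 1) was fitted with limma-trend (limma 3.58.1, R 4.3.3) in 1 fit of 11 distinct libraries and 4 groups, with 7 residual degrees of freedom and Benjamini-Hochberg adjustment over 1489 genes. The pseudocount of 1 makes log2 differences of low genes too small. A duplicated symbol (Dlg2) was dropped, and 3407 symbols matched GENCODE M21. The fit was tested on simulated data. Promoters are from RefSeq (GRCm38.p6), copies were found with BLAST 2.17.0, and tables and figures were made with Python 3.11.15, pandas 2.3.3, NumPy 2.4.6 and matplotlib 3.10.9.

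The 34 gene lists and the members were chosen with earlier results of these data known, so lists are described by counts and medians with no test. Named were all called genes, the 3 genes of smallest p in each list with at least 4 tested members, and Adipoq, Cdh13, Acta2 and Myh11. The remaining chaperone and clock genes and further list members were named after their values were seen, and not every gene of the rule is described. A gene of the fat-handling list is not reported here.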

Additional observations from a re-analysis of the deposited data

Results flagged for a closer look

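In 3 genes the level in HAPN differed from the other high-fat libraries by a test of that difference itself, the limma contrast of HAPN with the mean of HFD and HSAPN. Hspa1b was higher in HAPN by 3.81 on the log2(FPKM + 1) scale (SE 0.412, limma adjusted p = 0.00718), with 3 of 3 HAPN libraries above all 5 others. Hspa1a was higher by 2.85 (SE 0.380, limma adjusted p = 0.0143) and the pseudogene Gm14202 by 1.42 (SE 0.168, limma adjusted p = 0.00805), each again in 3 of 3 libraries. Gm14202 passed the filter through HAPN libraries and not WT, so its high HAPN values were a condition of being tested. All 3 lost their call without HAPN replicate 2. Hspa1a also lost it without HFD replicate 1, HAPN replicate 1, HSAPN replicate 2 or HSAPN replicate 3, and Gm14202 by limma-voom on recovered reads.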

How the results depend on the processing

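Against 12 called genes of HAPN against WT, limma called 0 with a pseudocount of 0.1, 2 with no filter (Cdc20b and Lcn12, both lower, named after their values were seen), 0 with the filter of 1 FPKM in all 6 libraries, 512 with array weights (174 higher, 338 lower) and 0 with WT and HAPN fitted alone, and limma-voom on recovered reads called 0. Median-ratio scaling gave 17. Leaving out 1 library gave 0 to 185 calls. Same-numbered WT and HAPN libraries correlated in their deviations from the group means by 0.33, 0.25 and 0.04. Differently numbered ones ran from -0.63 to 0.42. The labels do not say that the numbers pair samples, so the main fit held no block. With the replicate block, in a fit of WT and HAPN alone, limma called 1 gene, Ighv9-3. Against the 3 genes of HAPN against HFD and HSAPN, the stricter filter gave 10 calls, array weights 18 and libraries left out 0 to 6. Differences turned sign for Sod3 (0.030 with limma-voom, and -0.60 to 0.0075 over the libraries left out), Cdh13 (0.032 with limma-voom) and Hspb1 (-0.090 with array weights, and -0.025 to 0.58 over the libraries left out). The medians of 14 of 22 lists kept their sign over all alternatives and 8 did not. The cause of these changes was not tested. With 3 libraries a group, and few reads behind genes such as Gm14202 (4 to 21), depth and number limit the precision.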

Other observations

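Genes of insulin signalling and glucose uptake were lower in HAPN in 6 of 8 tested members, with a median log2 difference of -0.49 and no call. That median was -0.24 without WT replicate 3, -0.31 after median-ratio scaling and -0.19 by limma-voom on recovered reads. Igf1, a growth factor made by many cells of the wall, was at 4.55, 3.70 and 4.05 FPKM in WT and 2.08, 1.34 and 1.75 FPKM in HAPN, without overlap (log2 -0.91, SE 0.293, limma adjusted p = 0.139). Slc2a4, the insulin-responsive glucose transporter, overlapped, at 4.17, 17.2 and 9.67 FPKM in WT and 3.65, 5.21 and 1.12 FPKM in HAPN. Of 4 tested antioxidant genes 1 was higher and 3 lower, with a median log2 difference of -0.17 (0.02 after scaling). The higher one, Gpx3, a secreted glutathione peroxidase, was at 196, 256 and 470 FPKM in WT and 404, 717 and 748 FPKM in HAPN (log2 difference 1.06, SE 0.346, limma adjusted p = 0.140). WT replicate 3 lay among the HAPN values of Gpx3.

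Schwann cell and nerve genes were lower in 5 of 6 tested members (median log2 -0.80). The median was -0.47 without WT replicate 2, -1.11 without WT replicate 1 and -1.23 with a pseudocount of 0.1, and it turned to 0.13 with the filter of 1 FPKM in all 6 libraries, which tests fewer of the genes. S100b, a calcium-binding protein of Schwann cells, was at 6.24, 9.53 and 4.44 FPKM in WT and 3.28, 2.69 and 0.859 FPKM in HAPN, without overlap (log2 -1.27, SE 0.527, limma adjusted p = 0.194). Granulocyte and mast cell genes were higher in 4 of 5 tested members, with a median log2 difference of 0.35. That median ran from -0.85 to 1.07 over 19 alternatives. Ltf was the lower member (log2 -2.40, limma adjusted p = 0.422). Prg2, the eosinophil major basic protein, was at 0.341, 0.534 and 0.421 FPKM in WT and 2.13, 4.42 and 2.66 FPKM in HAPN. These were 5 to 8 and 29 to 66 reads (log2 difference 1.47, SE 0.329, limma adjusted p = 0.107). Prg2 passed the filter through HAPN libraries alone and so had to differ. Macrophage genes showed no common direction, with 4 of 6 higher and a median log2 difference of 0.14, which was -0.11 without HAPN replicate 3 and 0.35 without HAPN replicate 1. Cyp1a1, a target of the aryl hydrocarbon receptor named after its values were seen, was at 3.46, 3.73 and 16.1 FPKM in WT and 0.663, 1.59 and 2.75 FPKM in HAPN, without overlap (log2 -1.49, SE 0.577, limma adjusted p = 0.183).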
